A study of Homo sapiens with 6 samples.

Results

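Squamous epithelium is renewed by basal cells whose identity depends on the transcription factors p63 (TP63) and, in the oral cavity and oesophagus, SOX2. As the cells leave the basal layer, a set of differentiation regulators takes over, among them the Notch receptor NOTCH1, the Kruppel-like factors KLF4 and KLF5, the grainyhead-like factors GRHL1, GRHL2 and GRHL3, and the zinc finger proteins OVOL1 and ZNF750. Squamous carcinomas commonly retain or amplify TP63 and SOX2, and NOTCH1 and ZNF750 are recurrently mutated in them.

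The transcripts of these 10 genes were taken, by Ensembl identifier and GENCODE 29 symbol, from the 58243 genes listed for CAL27 cells, an established line from a squamous carcinoma of the human tongue. TP63 and SOX2 were set as the 2 basal and stem factors and the other 8 genes as differentiation drivers. The cells were cultured for 48 h in medium with serum, either with 30 mM metformin, a biguanide used against diabetes, or with phosphate-buffered saline (PBS) as the vehicle. There were 3 metformin and 3 PBS libraries from this 1 cell line, at 1 dose and 1 time. Nothing in the labels says that replicates came from separate cultures, and the spread on which each p-value rests may be a technical one. The values are per bulk library, in which fewer cells of a type and less RNA per cell cannot be told apart.

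Values are FPKM, fragments scaled to transcript length and to library size, which allow levels to be compared between genes. Libraries were estimated to hold 7850000 to 8840000 fragments, on an untested assumption given with the processing below. Libraries of a group correlated across genes between 0.974 and 0.979 (log2 values). Tests used limma on log2(FPKM + 1) over the 13437 genes whose mean reached 1 FPKM, and a gene is called higher or lower where the Benjamini-Hochberg adjusted p is below 0.05. By this rule 56.2% of all tested genes were called, 31.0% higher and 25.2% lower with metformin, so a call by itself does not set a gene apart. The 8 markers of squamous epithelium used to check the cell type (KRT5, KRT14, KRT6A, KRT17, DSP, DSG3, CDH1 and EPCAM) all passed the level filter, and summed to between 472 and 490 FPKM with metformin and between 1040 and 1102 with PBS. Of these 8, KRT5, KRT14, KRT6A, KRT17 and DSP were lower and DSG3, CDH1 and EPCAM higher with metformin, and KRT5 and KRT14 made the largest part of the difference in the sum. Of 7 fibroblast, 4 endothelial and 5 leukocyte markers, 1 each passed the filter (COL1A1, CDH5 and CD68). The fibroblast list summed to 2.49 to 2.74 FPKM with metformin and 1.54 to 2.34 with PBS, the endothelial list to 2.01 to 2.32 with metformin and 5.93 to 6.87 with PBS, and the leukocyte list to 3.43 to 5.09 with metformin and 2.31 to 3.23 with PBS. The fibroblast markers PDGFRA and DCN and the endothelial marker KDR were listed at 0 in every library. The part of these markers in the results was not tested.

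Metformin-treated cells had lower levels of both basal and stem factors and higher levels of 4 of the 8 drivers. SOX2 was 8.03-fold lower and TP63 1.34-fold lower, whereas GRHL3 was 5.46-fold, KLF4 2.64-fold, OVOL1 1.72-fold and ZNF750 1.55-fold higher (ratios of group means, n = 3 each). NOTCH1 was the driver called lower, by 1.26-fold. KLF5, GRHL1 and GRHL2 were not called (log2 changes -0.21, 0.076 and -0.14). The median log2 change of the 8 drivers was 0.27, against 0.061 over all tested genes, and the share of drivers called higher stands beside 31.0% of tested genes. In all, 7 of the 10 genes were called, against 56.2% of tested genes, and in the same 7 genes the metformin and PBS ranges were separate, against 64.4% of tested genes. All 10 genes passed the level filter, but SOX2 did so only through the PBS libraries and GRHL3 only through the metformin libraries.

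**Figure D1:**
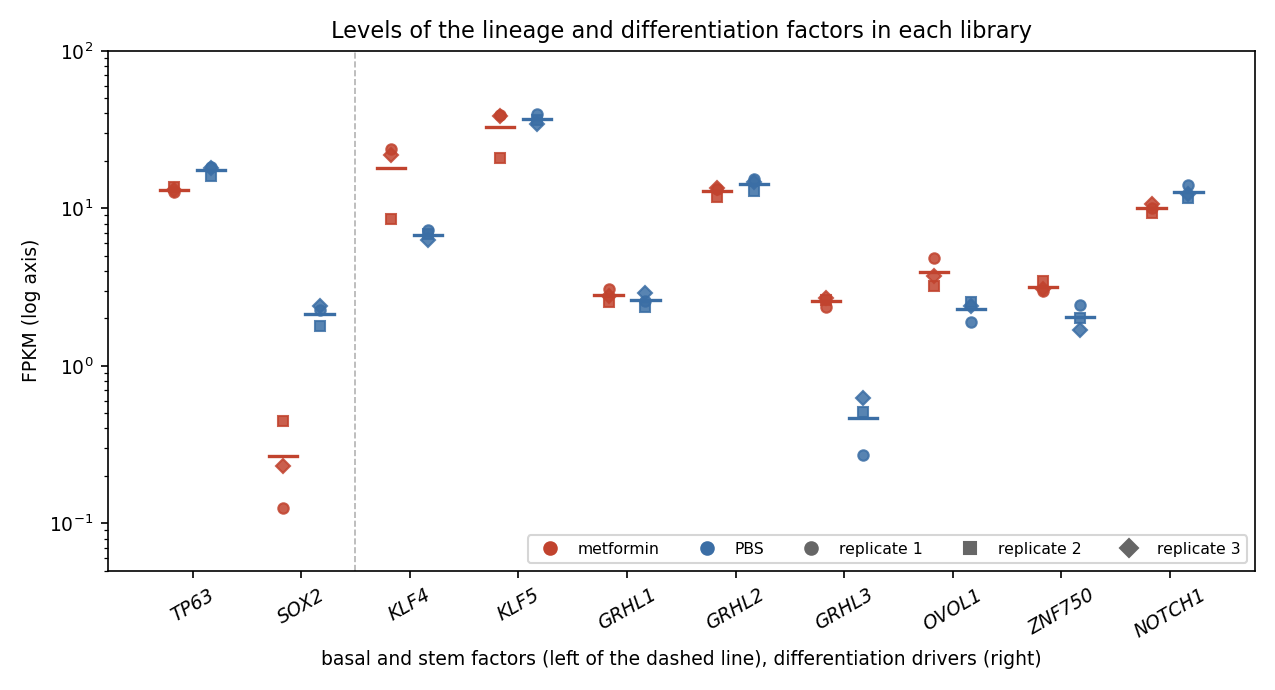
FPKM (log axis) of the 10 genes in each library, metformin left of PBS, with a symbol for each replicate and a line at the group mean. SOX2 and GRHL3 move in opposite directions, and for KLF4 and KLF5 metformin replicate 2 lies below the other metformin libraries.

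KLF5 was the most abundant of the 10 transcripts in both groups. With metformin the order of mean levels was KLF5, KLF4, TP63, GRHL2, NOTCH1, OVOL1, ZNF750, GRHL1, GRHL3 and SOX2. The ranges of neighbours in this order overlapped except at 3 steps, between GRHL2 and NOTCH1, between NOTCH1 and OVOL1, and between GRHL3 and SOX2. With PBS the order was KLF5, TP63, GRHL2, NOTCH1, KLF4, GRHL1, OVOL1, SOX2, ZNF750 and GRHL3. There the ranges overlapped between GRHL2 and NOTCH1 and along the run of GRHL1, OVOL1, SOX2 and ZNF750. SOX2 thus ranked 10 with metformin and 8 with PBS, and KLF4 ranked 2 with metformin and 5 with PBS.

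TP63 (ENSG00000073282.12, chromosome 3, 189631416 to 189897279, plus strand, GENCODE 29 on GRCh38) encodes p63, the p53-family factor that basal keratinocytes require. It had 12.8, 13.6 and 13.0 FPKM in the metformin libraries and 18.3, 16.1 and 18.1 in the PBS libraries. Every metformin library lay below every PBS library. Its log2 change was -0.39 (SE 0.068, 95% interval -0.55 to -0.23, limma adjusted p = 0.00286). TP63 makes long (TA) and short (DeltaN) proteins from separate promoters, and GENCODE 29 lists 14 transcripts from 8 start positions. The deposited value is 1 number per gene, so it does not show which of these forms was lower.

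SOX2 (ENSG00000181449.3, chromosome 3, 181711924 to 181714436, plus strand) is a stem cell factor that oral and oesophageal progenitors express and that lies in a region often gained in squamous tumours. It had 0.125, 0.446 and 0.231 FPKM in the metformin libraries and 2.27, 1.78 and 2.39 in the PBS libraries. The groups were far apart, and the level with metformin was low in each library. The log2 change on the log2(FPKM + 1) scale was -1.31 (SE 0.14, limma adjusted p = 0.00033), which understates the ratio of means because the values are near the pseudocount. SOX2 has 1 transcript of 2513 bases, from which its value corresponds to an estimated 2.5, 9.5 and 5.0 fragments with metformin and 47, 35 and 53 with PBS. On this estimate the difference between metformin libraries is a matter of a few fragments.

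GRHL3 (ENSG00000158055.15, chromosome 1, 24319322 to 24364482, plus strand) drives terminal differentiation and barrier formation in the epidermis. It had 2.37, 2.62 and 2.70 FPKM in the metformin libraries and 0.271, 0.507 and 0.629 in the PBS libraries. The lowest metformin library was above the highest PBS library by a wide margin. GRHL3 had a log2 change of 1.28 (SE 0.12, 95% interval 0.99 to 1.58, limma adjusted p = 0.000204). Its relatives GRHL1 and GRHL2, which also bind the grainyhead motif and keep epithelial junction genes active, were not called. GRHL2 had 13.3, 11.7 and 13.5 FPKM with metformin and 15.3, 12.9 and 14.7 with PBS, and the ranges overlapped (log2 change -0.14, 95% interval -0.35 to 0.062, limma adjusted p = 0.197). GRHL1 had 3.09, 2.52 and 2.79 FPKM with metformin and 2.57, 2.34 and 2.91 with PBS, again with overlap (log2 change 0.076, 95% interval -0.16 to 0.31, limma adjusted p = 0.545). Within a library, the level of GRHL3 relative to GRHL2 was 0.201 ± 0.0224 with metformin and 0.0333 ± 0.0136 with PBS (SD, n = 3 each). GRHL2 thus remained the most abundant of the 3 grainyhead-like transcripts in both groups.

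KLF4 (ENSG00000136826.14, chromosome 9, 107484852 to 107490482, minus strand) promotes exit from the cell cycle and suprabasal differentiation. It had 23.7, 8.52 and 21.8 FPKM in the metformin libraries and 7.23, 6.89 and 6.31 in the PBS libraries. Metformin replicate 2 was above all PBS libraries but far below the other metformin libraries. KLF4 had a log2 change of 1.17 (SE 0.35, 95% interval 0.34 to 1.99, limma adjusted p = 0.0257). Without metformin replicate 2 the log2 change was 1.61 (limma adjusted p = 0.000116). The call was lost when any of the other 5 libraries was left out instead, with log2 changes of 0.92 to 1.20 and limma adjusted p of 0.0563 to 0.0794, and also without the level filter (limma adjusted p = 0.068).

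KLF5 (ENSG00000102554.13, chromosome 13, 73054976 to 73077542, plus strand), a relative of KLF4 that is abundant in proliferating and differentiating squamous cells, had 39.3, 20.8 and 38.5 FPKM with metformin and 39.6, 36.5 and 34.4 with PBS. The low value was again that of metformin replicate 2, and the ranges of the groups overlapped. The log2 change was -0.21 (SE 0.23, 95% interval -0.77 to 0.35, limma adjusted p = 0.471), and without metformin replicate 2 it was 0.080 (limma adjusted p = 0.404). KLF4 divided by KLF5 was 0.601, 0.410 and 0.567 in the metformin libraries and 0.183, 0.189 and 0.184 in the PBS libraries. In this ratio the libraries of the groups stood apart, with metformin replicate 2 included. In metformin replicate 2, 40 tested genes lay at least 1 log2 unit below both other metformin libraries, and KLF4 was the only one of the 10 genes among them. The same count was 35 to 51 over the 6 libraries. Whether a feature of this library sets its KLF4 and KLF5 values was not tested.

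OVOL1 (ENSG00000172818.9, chromosome 11, 65787022 to 65797219, plus strand) is a repressor that helps progenitors stop dividing. It had 4.83, 3.23 and 3.72 FPKM with metformin and 1.91, 2.53 and 2.41 with PBS. The groups did not overlap, although metformin replicate 2 and PBS replicate 2 were close. The log2 change was 0.58 (SE 0.14, limma adjusted p = 0.0123). OVOL1 shares 1044 of its 3849 exonic bases with AP001266.1, a gene on the opposite strand that averaged 4.12 FPKM with metformin and 2.10 with PBS. Fragments from the shared bases cannot be assigned without strand, and whether counting used strand is not given in the sources used here, so the size of the OVOL1 change is uncertain.

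ZNF750 (ENSG00000141579.6, chromosome 17, 82829435 to 82840578, minus strand) acts downstream of p63 to turn on differentiation genes, among them KLF4, and to repress progenitor genes. It had 2.96, 3.46 and 3.07 FPKM with metformin and 2.42, 2.01 and 1.69 with PBS. All metformin libraries were above all PBS libraries. The log2 change was 0.46 (SE 0.11, 95% interval 0.19 to 0.73, limma adjusted p = 0.0123).

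NOTCH1 (ENSG00000148400.9, chromosome 9, 136494433 to 136545786, minus strand) is the receptor whose cleaved intracellular part starts the differentiation programme in suprabasal cells. It had 9.98, 9.33 and 10.7 FPKM with metformin and 14.0, 11.5 and 12.3 with PBS. The groups did not overlap, but the gap between the highest metformin and the lowest PBS library was small. For NOTCH1 the log2 change was -0.31 (SE 0.087, 95% interval -0.51 to -0.099, limma adjusted p = 0.0217). The call was lost without metformin replicate 1, metformin replicate 2 or PBS replicate 1, with log2 changes of -0.31, -0.26 and -0.24 and limma adjusted p of 0.0565, 0.0670 and 0.0587. The change of TP63 was of like size, and NOTCH1 divided by TP63 averaged 0.763 ± 0.0693 with metformin and 0.720 ± 0.0406 with PBS (SD, n = 3 each).

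**Figure D2:**
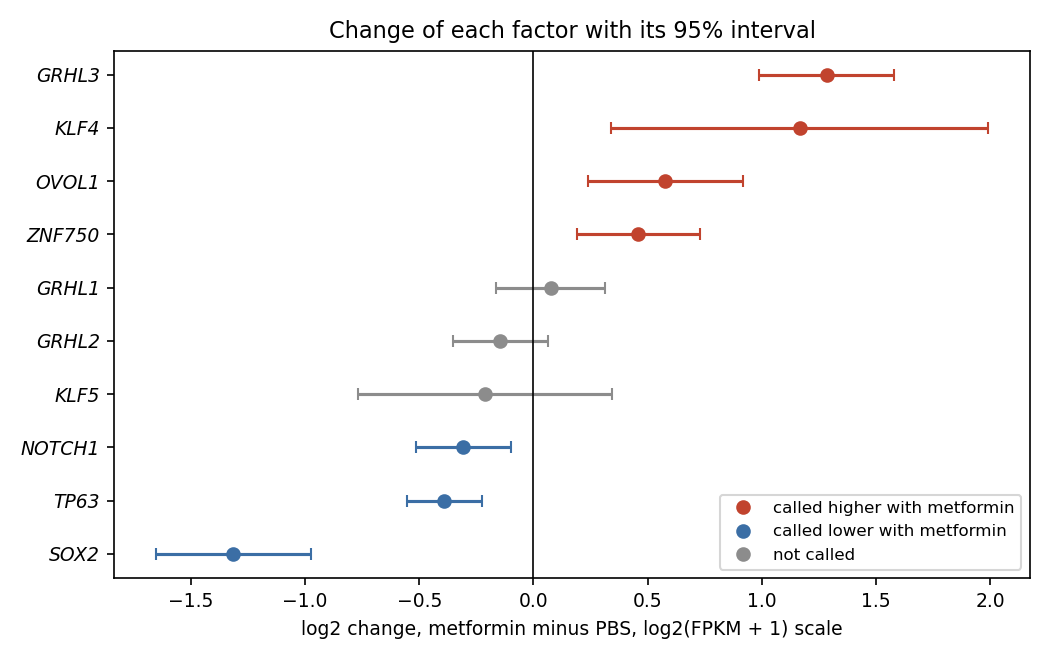
Log2 change of each gene, metformin minus PBS in log2(FPKM + 1), with its 95% interval from limma. GRHL3, KLF4, OVOL1 and ZNF750 lie above 0, NOTCH1, TP63 and SOX2 below it, and the intervals of GRHL1, GRHL2 and KLF5 include 0.

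The drivers were then set against the basal and stem factors within each library, as the mean log2(FPKM + 1) of the 8 drivers minus that of TP63 and SOX2. The difference was 1.22, 0.63 and 1.11 in the metformin libraries and -0.27, -0.11 and -0.31 in the PBS libraries. Drivers were on average the higher set in every metformin library and the lower one in every PBS library. The means were 0.99 ± 0.31 with metformin and -0.23 ± 0.10 with PBS (SD, n = 3 each). With TP63 alone as the basal factor, the difference was -0.59, -1.04 and -0.64 with metformin and -1.55, -1.42 and -1.56 with PBS. The groups thus also stood apart without SOX2, but drivers were then the lower set in every library of both groups. The change of sign therefore depended on SOX2. The distance between groups in this version includes the fall of TP63 itself (log2 change -0.39). Among the drivers, GRHL3 and KLF4 had the largest rises. Metformin replicate 2, with its low KLF4 and KLF5, was nearest to PBS in both versions. No p is given for these averages over chosen genes.

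**Figure D3:**
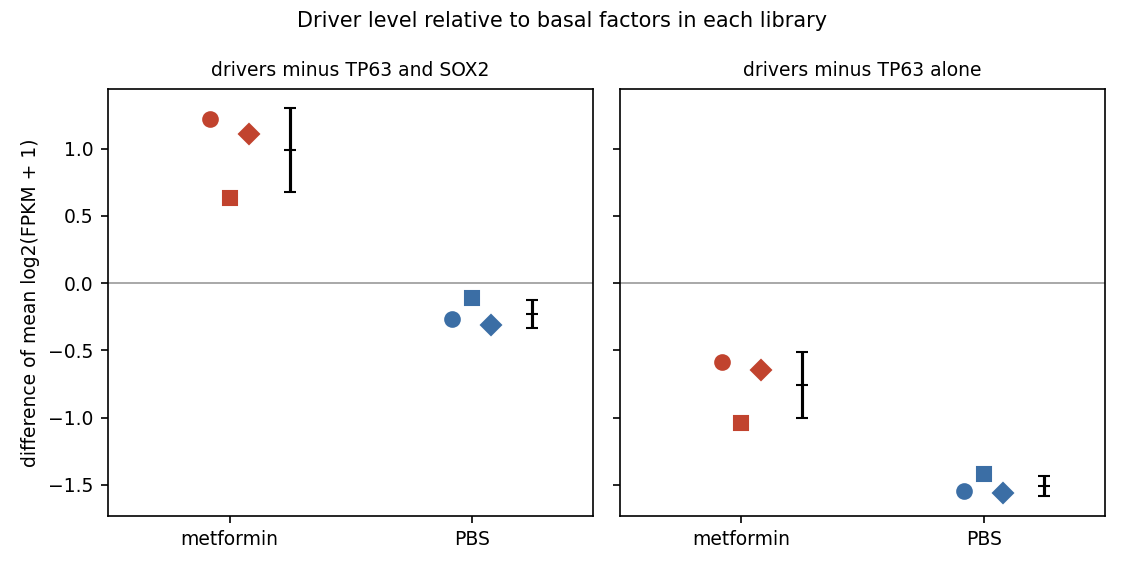
Mean log2(FPKM + 1) of the 8 drivers minus that of TP63 and SOX2 (left) or of TP63 alone (right), per library, with the mean and SD of each group in black. Metformin libraries lie between 0.63 and 1.22 on the left, against -0.31 to -0.11 for PBS. On the right the values of both groups are negative.

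Ratios to TP63 within a library were also taken for the 4 drivers called higher, whereas that of NOTCH1, given above, overlapped between the groups. KLF4 divided by TP63 was 1.85, 0.626 and 1.68 in the metformin libraries and 0.394, 0.428 and 0.348 in the PBS libraries. KLF4 transcripts thus outnumbered TP63 transcripts per length in 2 of 3 metformin libraries and in 0 of 3 PBS libraries. GRHL3 divided by TP63 averaged 0.195 ± 0.0114 with metformin and 0.0270 ± 0.0107 with PBS, OVOL1 divided by TP63 0.301 ± 0.0715 with metformin and 0.131 ± 0.0265 with PBS, and ZNF750 divided by TP63 0.241 ± 0.0121 with metformin and 0.117 ± 0.0204 with PBS (SD, n = 3 each).

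The promoter sequences of GRHL3, KLF4 and SOX2, the members with a change above 1 log2 unit, show what lies just before RefSeq starts of these genes. RefSeq (GRCh38.p14) held windows for 7 of the 10 genes, 9 windows in all, and not for GRHL2, OVOL1 and ZNF750. The 250 bases before each start are printed 5′ to 3′ on the gene's strand. Capitals mark matches, on either strand, to CACCC (bound by Kruppel-like factors), GGGCGG (the GC box of SP and Kruppel-like factors) or CCAAT (bound by NF-Y). The windows are chr1:24319107-24319356 and chr1:24322790-24323039 for GRHL3 (plus strand), for which GENCODE 29 lists 8 start positions, chr3:181711675-181711924 for SOX2 (plus strand) and chr9:107489770-107490019 for KLF4 (minus strand). The KLF4 window lies inside the GENCODE 29 gene, whose 5′ end is at 107490482. For KLF4, GENCODE 29 lists 6 start positions.
GRHL3 upstream window: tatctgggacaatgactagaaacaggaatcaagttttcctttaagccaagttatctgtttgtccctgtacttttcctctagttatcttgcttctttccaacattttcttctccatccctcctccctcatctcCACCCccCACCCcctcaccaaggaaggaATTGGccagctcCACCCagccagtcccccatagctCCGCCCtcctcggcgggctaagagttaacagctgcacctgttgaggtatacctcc
GRHL3 downstream window: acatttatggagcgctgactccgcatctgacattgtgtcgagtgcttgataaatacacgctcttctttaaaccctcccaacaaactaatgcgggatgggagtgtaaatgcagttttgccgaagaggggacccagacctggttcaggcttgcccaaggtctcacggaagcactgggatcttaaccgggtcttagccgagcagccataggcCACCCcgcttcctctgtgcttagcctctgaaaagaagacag
KLF4: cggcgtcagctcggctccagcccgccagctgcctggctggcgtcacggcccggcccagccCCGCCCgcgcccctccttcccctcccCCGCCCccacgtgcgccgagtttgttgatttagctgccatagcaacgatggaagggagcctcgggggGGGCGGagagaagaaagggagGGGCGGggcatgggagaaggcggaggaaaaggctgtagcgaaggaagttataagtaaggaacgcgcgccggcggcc
SOX2: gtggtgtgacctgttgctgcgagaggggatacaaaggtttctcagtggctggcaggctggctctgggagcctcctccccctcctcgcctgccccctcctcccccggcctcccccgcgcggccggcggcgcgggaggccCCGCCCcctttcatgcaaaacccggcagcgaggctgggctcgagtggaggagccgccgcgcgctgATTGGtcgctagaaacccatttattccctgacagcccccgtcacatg

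The upstream GRHL3 window holds 3 CACCC matches, 1 GC box and 1 CCAAT match, and its downstream window holds 1 CACCC match. KLF4 has 4 GC boxes and a GC content of 69.2%, and SOX2 has 1 GC box and 1 CCAAT match at 68.8% GC. Such matches are common: CACCC occurs in 54.7%, the GC box in 42.6% and CCAAT in 32.0% of 35116 promoter windows of this length. Also searched on both strands, and not found in these 4 windows, were AACNGGTT (grainyhead-like, in 1.49% of windows), the paired core of the p53 family (0.296%), TGANTCA (AP-1, 6.57%), TGATGNAAT (ATF4 with CEBP partners, 0.888%), TGGGAA (RBPJ, the DNA-binding partner of Notch, 20.8%) and TATAAA (10.7%). A match describes letters in this window only.

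By distance between log2(FPKM + 1) values centred over the 6 libraries, the protein-coding genes nearest to GRHL3, the largest rise, were AVPI1, ZFAND1 and PCCA, with root mean squared differences of 0.0429, 0.0466 and 0.0609. All 3 are more abundant: AVPI1 had 46.7 ± 0.966 FPKM with metformin and 19.1 ± 1.92 with PBS. Nearest to SOX2, the largest fall, were RACGAP1, a regulator of cytokinesis (12.9 ± 1.65 with metformin and 34.7 ± 1.79 with PBS), E2F8, a repressor of the E2F family, and HNRNPD, an RNA-binding protein, at 0.0581, 0.0827 and 0.0829. The measure is governed by the difference between the groups on this scale, where the pseudocount makes the changes of GRHL3 and SOX2 smaller. As ratios of means the neighbours changed less. AVPI1, ZFAND1 and PCCA rose 2.45-fold, 2.55-fold and 3.16-fold, against 5.46-fold for GRHL3. RACGAP1, E2F8 and HNRNPD had metformin to PBS ratios of 0.372, 0.337 and 0.381, against 0.125 for SOX2.

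NOTCH1 was followed through its pathway, in which ligands on a neighbouring cell trigger cleavage of the receptor by ADAM proteases and gamma-secretase, and the released part joins RBPJ and MAML coactivators on target genes. Of 8 ligands and other receptors, 5 were tested, with 1 higher and 3 lower and a median log2 change of -0.90, against 0.061 over all tested genes. Without the level filter the median of all 8 was 0.026. The ligand JAG2 had 3.17, 3.45 and 2.85 FPKM with metformin and 11.8 to 12.3 in the PBS libraries, 3.81-fold lower (limma adjusted p = 9.24e-06). The ligand DLL1 fell 1.96-fold to 9.69 ± 0.828 with metformin, against 19.0 ± 0.826 with PBS. The receptor NOTCH3 fell 2.41-fold to 5.94 ± 0.507 with metformin, against 14.3 ± 1.16 with PBS. JAG1, another ligand, was higher, with 21.8, 22.7 and 21.7 FPKM with metformin and 13.1, 13.1 and 12.7 with PBS (1.70-fold, limma adjusted p = 5.56e-05). The 2 JAG ligands were thus near one another with PBS and far apart with metformin. NOTCH2 was not called, at a mean of 6.83 FPKM with metformin and 5.75 with PBS.

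Of 23 genes for Notch processing, modification and nuclear partners, 21 were tested, with 7 higher and 4 lower and a median log2 change of 0.13. This median was 0.068 with median-of-ratios scaling and 0.052 with quantile normalization. Over all tested genes the median was 0.061, and 0.012 and -0.0072 with those scalings. LFNG, a Fringe glycosyltransferase that tunes which ligands the receptor answers to, had the largest change of the tested genes of this list. It had 1.44, 1.23 and 1.43 FPKM with metformin and 10.7, 9.59 and 10.3 with PBS (7.48-fold lower, limma adjusted p = 3.92e-06). POFUT1, which adds the fucose that Fringe extends, fell 1.61-fold, and the coactivator MAML2 1.94-fold. ADAM17, a surface protease, and the coactivator MAML1 rose 1.76-fold and 1.72-fold. Of 9 Notch target genes, 4 were tested, with 1 higher and 3 lower (median -0.86), and HES2 passed the level filter only through the PBS libraries. Without the filter 8 could be fitted, with 2 higher and 4 lower and a median of -0.11. HES1 was higher, at 17.1 ± 0.326 FPKM with metformin and 12.6 ± 1.17 with PBS. NRARP, a feedback inhibitor, was lower at 10.2 ± 1.87 with metformin and 21.9 ± 1.93 with PBS. HES4 fell 1.67-fold, and HES2 averaged 0.431 ± 0.259 FPKM with metformin and 1.98 ± 0.139 with PBS (SD, n = 3 each). HEY1, a target under the filter, averaged 1.41 FPKM with metformin and 0.438 with PBS (limma adjusted p = 0.00557 without the filter). The targets thus did not move one way, and HES1 was higher while NOTCH1 was lower.

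**Figure D4:**
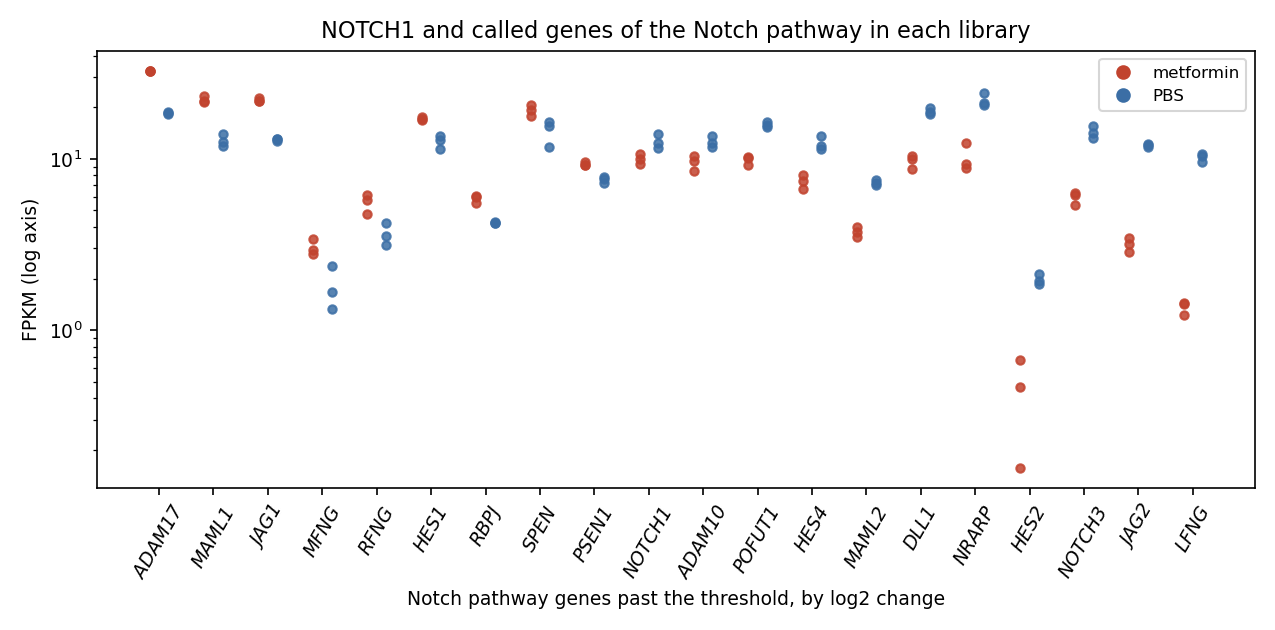
FPKM (log axis) in each library of NOTCH1 and of the Notch pathway genes past the threshold, metformin left of PBS, ordered by log2 change from the largest rise to the largest fall. ADAM17, MAML1 and JAG1 are on the left, and LFNG, JAG2 and NOTCH3 on the right.

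Relatives of the members were described by lists. The counts of every list, above and below, stand beside 31.0% of tested genes called higher and 25.2% called lower. The list medians stand beside 0.061 over all tested genes. Of 10 SOX genes other than SOX2, 6 were tested, with 2 higher and 2 lower (3 lower with median-of-ratios scaling or quantile normalization). SOX9, a progenitor factor of hair follicle and other epithelia, had 12.5, 11.9 and 13.5 FPKM with metformin and 3.18, 2.15 and 2.89 with PBS (4.61-fold higher, limma adjusted p = 3.32e-05). SOX15 rose 1.80-fold to 64.7 ± 5.87 with metformin, against 36.0 ± 2.08 with PBS, and was the most abundant of the SOX genes named here. SOX7 fell 1.37-fold. With metformin SOX9 was thus far above SOX2, whereas with PBS their ranges lay close, at 2.15 to 3.18 for SOX9 and 1.78 to 2.39 for SOX2. Of 17 other KLF and SP genes, 11 were tested, with 7 higher and 0 lower (median log2 change 0.28), a count that was 5 with median-of-ratios scaling or quantile normalization. KLF9, a glucocorticoid-responsive factor, rose 2.18-fold, to 9.89 ± 0.445 with metformin, against 4.54 ± 0.422 with PBS, and SP3 rose 1.48-fold and KLF11 1.45-fold.

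Other regulators of the lineage moved both ways. Of 17 lineage and progenitor regulators, 16 were tested, with 6 higher and 4 lower (median log2 change 0.31). TP73, the p53-family relative of TP63, which passed the filter only through the PBS libraries, had 0.514, 0.471 and 0.713 FPKM with metformin and 3.83, 6.52 and 6.45 with PBS (9.90-fold lower, limma adjusted p = 0.000158). ID1, which holds basic helix-loop-helix factors inactive, fell 3.30-fold. RUNX1, ETS1 and PITX1 rose 2.21-fold, 1.81-fold and 1.61-fold. Of 24 other differentiation factors, 14 were tested, with 7 higher and 3 lower (median 0.22, and 0.10 over all 24 without the filter). CEBPB had 132 ± 2.40 FPKM with metformin and 71.2 ± 8.43 with PBS, and KDM6B, a histone demethylase, rose 2.18-fold and PPARD 1.40-fold. CEBPD fell 1.59-fold, BARX2 2.09-fold and VDR, the vitamin D receptor, 1.26-fold.

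Genes that these factors are known to regulate gave the following counts, beside 31.0% of all tested genes called higher and 25.2% lower. Of 24 basal genes regulated by p63, 23 were tested, with 14 lower and 5 higher and a median log2 change of -0.55. BMP7, 1 of the 14, passed the filter only through the PBS libraries. Without the filter all 24 could be fitted, with 15 lower and 4 higher and a median of -0.60. Among the tested genes the basal keratins KRT14, KRT15 and KRT5 had the largest falls, 19.1-fold, 11.1-fold and 6.77-fold, all beyond the 1.34-fold of TP63 itself. LAMB3, which encodes a laminin chain of the basement membrane, rose 1.61-fold, and FGFR2 rose 1.75-fold. Of 40 terminal differentiation products, 19 were tested, with 15 higher and 2 lower (median 1.18), and the other 21 were under the level filter. SPRR2A, SPRR2D, SPRR2E, LCE3D, KLK7 and ALOXE3 passed the filter only through the metformin libraries, where they are high. Without the filter 35 of the list could be fitted, with 21 higher and 3 lower and a median of 0.68. Among tested genes, the cornified envelope genes SPRR2D, SPRR2E and SPRR2A rose most in log2(FPKM + 1), and SPRR2E had 11.5, 10.1 and 7.13 FPKM with metformin and 0.334, 0.697 and 0.974 with PBS. LCE3D, a late cornified envelope gene, had 3.60, 2.90 and 4.05 FPKM with metformin and was listed at 0 in every PBS library. RHCG, an ammonium transporter of oesophageal epithelium, fell 1.31-fold. Among the 3 lower without the filter were the keratins KRT13 and KRT4. KRT13 averaged 0.0913 FPKM with metformin and 1.03 with PBS (limma adjusted p = 0.00313 without the filter). KRT4 averaged 0.0248 with metformin and 0.189 with PBS (limma adjusted p = 0.0261 without the filter).

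Of 16 junction and barrier genes linked to grainyhead-like factors, all were tested, with 11 higher and 3 lower and a median log2 change of 0.49. OCLN, which encodes occludin of tight junctions, had 8.73, 9.34 and 8.02 FPKM with metformin and 1.92, 0.923 and 2.29 with PBS (5.09-fold higher, limma adjusted p = 0.00029). MARVELD2, which encodes tricellulin, rose 2.15-fold and CLDN7, a claudin, 2.01-fold. ARHGEF19 and the membrane protease gene ST14 fell 2.12-fold and 1.25-fold. Of 9 mesenchymal factors and markers, which OVOL and grainyhead-like factors are known to repress, 4 were tested, with 1 higher and 1 lower. The higher gene was SNAI2, at 30.1 ± 1.79 FPKM with metformin and 25.5 ± 2.33 with PBS (limma adjusted p = 0.0413), and its ranges overlapped. With median-of-ratios scaling or without the filter, 0 genes of this list were called higher. ZEB1 was under the level filter, at a mean of 0.126 FPKM with metformin and 0.0693 with PBS. ADAM17, KLF11, CEBPB, MAML2, SOX15, ARHGEF19, CLDN7 and LAMB3 share exonic bases with another gene above the filter, so part of their fragments cannot be assigned with certainty. The same holds for the markers CDH1 and CD68 and for GRHL2. CD68 shares 1789 of its 2189 exonic bases with AC016876.2 on the same strand, and GRHL2 shares 50 of 6060 with AP001207.3.

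**Figure D5:**
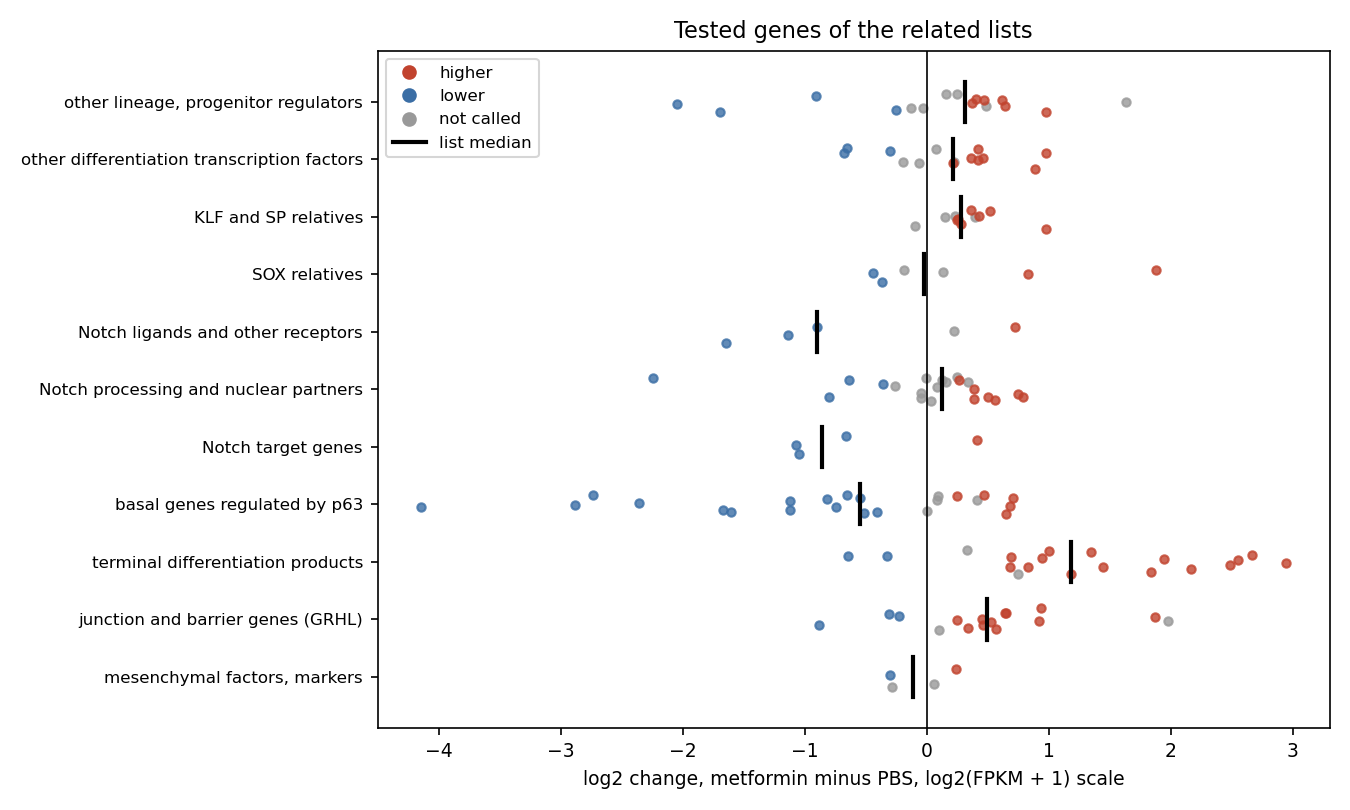
Log2 change (metformin minus PBS, log2(FPKM + 1) scale) of each tested gene of the 11 related lists, with the list median as a black bar. Terminal differentiation products have a median of 1.18, basal genes regulated by p63 one of -0.55, and Notch ligands and receptors one of -0.90. Without the level filter, which is not drawn, these medians were 0.68, -0.60 and 0.026.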

How the data were processed

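RNA of CAL27 cells was sequenced as 6 libraries, 3 with metformin and 3 with PBS. Per the file headers the deposited tables hold FPKM, 1 for each gene and library, and per the submitters' processing notes the build was GRCh38. No aligner, quantification tool, strand setting or annotation was found in the sources used here. Of 58243 identifiers, 57980 were named by GENCODE 29 without the version. Genes listed at 0 are described as listed at 0.

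The 13437 genes whose mean reached 1 FPKM were fitted as log2(FPKM + 1) with limma 3.58.1 in R 4.3.3 (intensity trend, group as the only term, two-sided, Benjamini-Hochberg adjustment, threshold 0.05), after the fit was tested on simulated data. Fragment numbers were estimated from the steps between low values of genes with 1 transcript. The best-fitting step was counted as a part of a fragment, which was not tested. Were each step a whole fragment, the fragment numbers of the libraries and of SOX2 would be larger than those given. Python 3.11.15 with pandas 2.3.3 and NumPy 2.4.6 did the rest. The members, lists and alternatives were chosen with earlier results of these data known. The text names, per list, up to 3 rises and 3 falls past the threshold without overlap of the groups, apart from 5 genes whose calls were lost in an alternative. Some genes that meet this rule are not reported here. NOTCH2, ZEB1, HEY1, LCE3D, KRT13, KRT4, CLDN4 and SNAI2 were chosen after their values were seen. Alternatives were other pseudocounts, level filters, scalings, no trend, a replicate block and each library left out in turn. Intervals cover the spread between libraries.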

Additional observations from a re-analysis of the deposited data

How the results depend on the processing

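Of the 10 genes, TP63, SOX2, GRHL3, OVOL1 and ZNF750 kept direction and call in every alternative in which they were tested. With a mean of at least 5 FPKM required, 4738 genes were called in all and 3 of the members, since SOX2, GRHL1, GRHL3, OVOL1 and ZNF750 were then not tested. KLF4 had the same log2 change of 1.17 without a level filter but was no longer called (limma adjusted p = 0.068). When each library was left out in turn, KLF4 ranged from 0.92 to 1.61, NOTCH1 from -0.36 to -0.24 and KLF5 from -0.36 to 0.080, changing sign without metformin replicate 2 (0.080). GRHL1, not called, changed sign with quantile normalization (-0.061). Leaving out 1 library gave 5 to 6 called members. The driver average minus TP63 and SOX2 differed between groups by 1.21, and by 2.09 and 2.34 with pseudocounts of 0.1 and 0.01, by construction of the scale for low genes. With TP63 alone it was 0.75, and 0.95 and 0.99 with those pseudocounts. Same-numbered libraries of the groups did not deviate together (correlations across genes -0.0004, 0.0304 and -0.0105). With 3 libraries per group this does not show whether the numbers mark pairs. A replicate block gave 7139 called genes and 7 called members. Of 58 named list genes, 5 lost their call in an alternative: SOX12, MFNG, EVPL, RAB25 and FN1. SOX2 is limited by depth, with few fragments estimated per metformin library.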
